A study of Mus musculus with 10 samples.

Results

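Red cell genes and host genes of heme and iron handling were followed in 10 B16F10 tumors by bulk RNA sequencing. Their 10 symbols were taken from the 55401 gene rows of the count files. The 5 red cell genes are *Hba-a1*, *Hba-a2*, *Hbb-bs*, *Hbb-bt* and *Alas2*. The 5 host genes are *Hmox1*, *Slc40a1*, *Hp*, *Hpx* and *Cd163*. It was asked whether they differed between *Mir25* KO and NTC tumors, and whether the host genes followed the red cell genes from tumor to tumor.

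B16F10 is a mouse melanoma cell line. The KO group comprised 5 tumors of B16F10 cells in which *Mir25* had been disrupted with CRISPR-Cas9, and the NTC group 5 tumors of cells that carried a non-targeting control. All hosts were female C57BL/6J mice aged 9 to 12 weeks with an intact *Mir25* gene, so that only the tumor cells differed by genotype. All received Comb, that is GVAX (1000000 irradiated B16 cells that secrete GM-CSF, on days 1 and 4) with αPD-1 (10 mg/kg on days 6, 9 and 12), and all tumors were taken on day 15. The labels do not say which guide RNA or clone a KO tumor came from. No tumor had a read on *Mir25*, so the counts gave no check of the knockout. Melanoma markers were present in each tumor, with 8 genes summing to between 11685 and 22262 CPM (reads per 1000000 reads on genes, scaled by TMM factors).

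Hemoglobin is a tetramer of α-globin and β-globin chains, each carrying a heme group. Red cell precursors make it in the bone marrow, and young red cells in the blood still hold globin mRNA, so that globin reads in a tissue usually come with its blood. When red cells break down, haptoglobin binds free hemoglobin and hemopexin binds free heme. Macrophages take up the haptoglobin complex through the receptor CD163, break heme down with heme oxygenase and export the released iron through ferroportin. In tumors these steps are best known from macrophages near vessels and bleeding sites.

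The α-globin genes lie on chromosome 11 of GRCm38, *Hba-a1* at 32283511 to 32284465 and *Hba-a2* at 32296489 to 32297298, both on the plus strand. The adult β-globin genes lie on chromosome 7 on the minus strand, *Hbb-bs* at 103826534 to 103828096 and *Hbb-bt* at 103812524 to 103813996. *Alas2*, which encodes the red cell form of the first enzyme of heme synthesis, lies on chromosome X at 150547375 to 150570638. The 150 bases before the RefSeq start of each of these 5 genes (GRCm38.p6) were also read, and their relation to the levels in these tumors was not tested. Those of *Hba-a1* and *Hba-a2* were identical over the 147 bases they could be compared, so only *Hba-a2* is shown with the other 3 genes, 5′ to 3′ on the strand of the gene. Capitals mark matches on either strand to the letters CACCC, to CCAAT, to TATAA or to a GATA hexamer (A or T, then GATA, then A or G), and neighboring matches may run together.
Hba-a2, chr11:32296342-32296491, plus strand: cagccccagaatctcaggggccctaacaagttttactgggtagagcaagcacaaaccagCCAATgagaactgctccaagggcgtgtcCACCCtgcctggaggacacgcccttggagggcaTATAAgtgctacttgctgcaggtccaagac
Hbb-bs, chr7:103827929-103828078, minus strand: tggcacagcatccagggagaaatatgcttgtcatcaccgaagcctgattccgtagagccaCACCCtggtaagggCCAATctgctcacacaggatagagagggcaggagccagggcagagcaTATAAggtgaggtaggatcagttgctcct
Hbb-bt, chr7:103813924-103814073, minus strand: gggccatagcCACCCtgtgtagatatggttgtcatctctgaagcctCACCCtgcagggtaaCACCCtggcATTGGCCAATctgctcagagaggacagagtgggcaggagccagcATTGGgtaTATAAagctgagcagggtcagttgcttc
Alas2, chrX:150547267-150547416, plus strand: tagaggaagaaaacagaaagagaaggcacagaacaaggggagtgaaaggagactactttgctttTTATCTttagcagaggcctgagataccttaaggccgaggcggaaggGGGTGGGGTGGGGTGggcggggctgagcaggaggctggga

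All 4 globin windows held CACCC as well as CCAAT and TATAA. Of 32851 RefSeq promoter windows of the same length, 37.43% held CACCC, 24.5% held CCAAT and 14.15% held TATAA on either strand. The windows of *Hbb-bs* and *Hbb-bt* were identical at 71.14% of 149 aligned bases. The *Alas2* window held 3 copies of CACCC, read on the other strand, and 1 GATA hexamer, a match found in 16% of the windows. A match describes the letters of the window only. GENCODE M21, from which the gene positions were taken, starts all 5 red cell genes further upstream than RefSeq does, inside these windows or before them.

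The host genes are spread over the genome. *Hmox1*, which encodes the inducible heme oxygenase, lies on chromosome 8 at 75093621 to 75100589, and *Hp*, which encodes haptoglobin, lies on the same chromosome at 109575128 to 109579172. *Slc40a1*, which encodes the iron exporter ferroportin, lies on chromosome 1 at 45908068 to 45926523. *Hpx*, which encodes hemopexin, lies on chromosome 7 at 105591613 to 105600137. *Cd163* lies on chromosome 6 at 124304656 to 124330527.

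Reads counted on genes numbered 23243707 to 27006075 in KO tumors and 11896643 to 28682130 in NTC tumors. NTC replicate 1 stood apart from the other 9 libraries. It had the lowest total, 42.9% of its reads lay outside genes against 17.5% to 28.2% elsewhere, and 33193 genes had a count against 22192 to 25435. Its TMM factor was 0.628, against 0.968 to 1.11. The main comparisons are therefore also given without this library. Whether the unequal level of tumor, blood and immune RNA arises from more cells of a type or from more RNA per cell cannot be told apart in bulk tumors.

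Red cell genes made up a small share of each library. The 4 globin genes took 0.0266% to 0.158% of the reads on genes in KO tumors and 0.00795% to 0.0261% in NTC tumors. No KO tumor was below an NTC tumor in this share, which carries no TMM factor. KO replicate 3 (0.0266%) and NTC replicate 1 (0.0261%) nearly tied. In CPM without TMM factors, 1.50% of all genes had each KO tumor above each NTC tumor. *Hbb-bs* did not, at 186 such CPM in KO replicate 3 against 207 in NTC replicate 1. After TMM scaling, the summed globins reached 242 to 1570 CPM in KO tumors and 73.4 to 419 CPM in NTC tumors, and the groups overlapped through NTC replicate 1.

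*Hbb-bs*, the more abundant β-globin gene, was at 209, 1177, 169, 206 and 376.7 CPM in KO replicates 1 to 5. In NTC replicates 1 to 5 it was at 332, 63.2, 142, 62.1 and 52.2 CPM. KO replicate 2 was the highest tumor, and NTC replicate 1 was the only NTC tumor that reached the KO range. The means were 427 ± 427 CPM in KO (SD, n = 5) and 130 ± 118 CPM in NTC (SD, n = 5), and 80.0 ± 41.9 CPM in NTC without replicate 1 (SD, n = 4).

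*Hbb-bt*, the minor β-globin gene, was at 14.9, 78.1, 12.7, 14.6 and 22.7 CPM in KO replicates 1 to 5 and at 15.6, 4.83, 11.3, 4.47 and 3.99 CPM in NTC replicates 1 to 5. It ranked the tumors exactly as *Hbb-bs* did. *Hba-a1*, an α-globin gene, was at 37.3, 244, 46.7, 45.2 and 75.2 CPM in KO and at 59.0, 15.1, 39.3, 13.9 and 14.0 CPM in NTC tumors. *Hba-a2*, its near copy, was at 11.4, 71.0, 13.5, 15.8 and 24.9 CPM in KO and at 12.4, 3.68, 8.99, 4.76 and 3.23 CPM in NTC tumors. For each of these genes KO replicate 2 was highest, KO replicate 5 was second, and NTC replicates 2, 4 and 5 were lowest.

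*Alas2* had the same shape at lower levels. It was at 7.05, 36.3, 7.92, 8.15 and 11.5 CPM in KO replicates 1 to 5 and at 8.35, 1.71, 5.46, 2.07 and 1.46 CPM in NTC replicates 1 to 5. These values rest on 42 to 956 reads per tumor. Of the exonic bases of *Alas2*, 311 overlap *Apex2* and 61 overlap *Mir3620* on the other strand, and the strand setting of the counting is not given in the sources used here.

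**Figure D1:**
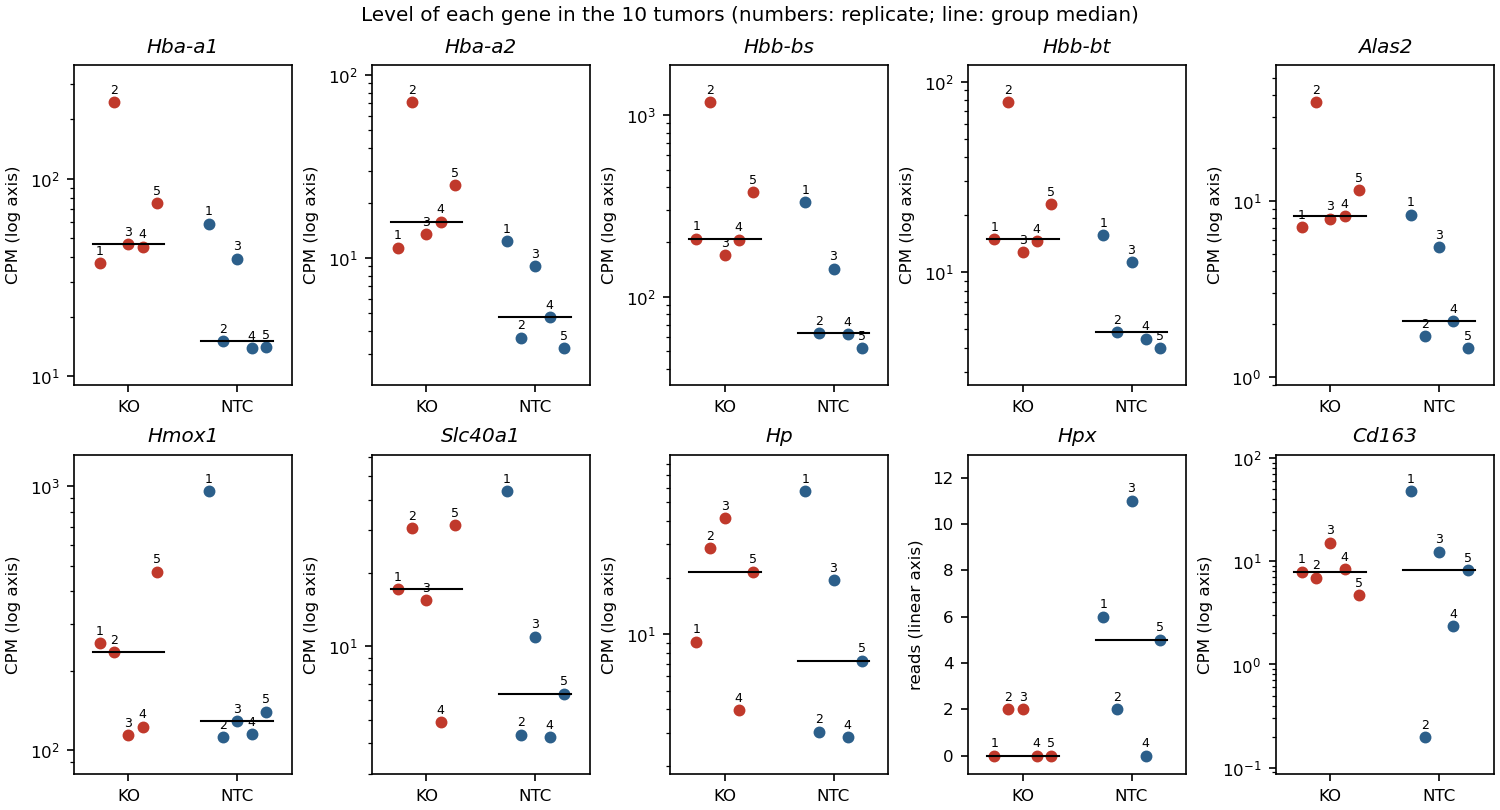
Level of the 10 genes in each tumor, as CPM on a log axis, except *Hpx*, whose reads are on a linear axis. Points are tumors, numbered by replicate, and lines are group medians. KO replicate 2 is highest for all 5 red cell genes (1177 CPM for *Hbb-bs*), and NTC replicate 1 is highest for *Hmox1* (955 CPM), *Slc40a1*, *Hp* and *Cd163*.

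Of the 10 genes, 9 had enough reads to be tested, all but *Hpx*. edgeR's quasi-likelihood test called none of the 9, with a call needing an adjusted p under 0.05 and an absolute log2 fold change above 1. Over all 15821 genes tested it called 3, or 0.0190%. At an unadjusted p under 0.05, 5 of the 9 were higher in KO and 0 lower, and these 5 were the red cell genes. Over all genes, 3.99% were higher at that level and 4.85% lower. DESeq2 called 1 of the 9, *Hba-a2*, against 0.152% of genes called higher.

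The estimates of the red cell genes lay close together. The log2 fold change of *Hba-a2* was 2.08 (SE 0.59, edgeR adjusted p = 0.278) and that of *Alas2* was 1.94 (SE 0.64, adjusted p = 0.379). It was 1.86 for *Hbb-bt* (SE 0.61, edgeR adjusted p = 0.380), 1.72 for *Hbb-bs* (SE 0.69, adjusted p = 0.505) and 1.68 for *Hba-a1* (SE 0.63, adjusted p = 0.471). These differences were not separable from the spread between tumors after adjustment over all genes. DESeq2 gave *Hba-a2* a log2 fold change of 2.06 with an adjusted p of 0.0171.

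The size of these estimates turned on 2 tumors. Without KO replicate 2, the log2 fold change of *Hbb-bs* was 0.89 and that of *Hba-a1* 0.87, and 3 of the 9 genes stayed under an unadjusted p of 0.05, against 2.65% of all genes higher. Without NTC replicate 1, it was 2.37 for *Hbb-bs*, 2.36 for *Alas2*, 2.35 for *Hba-a2*, 2.17 for *Hbb-bt* and 2.08 for *Hba-a1*, and 7 of the 9 genes were higher at that level against 12.0% of all genes, the other 2 being *Hmox1* and *Slc40a1*. edgeR still called none of the 9, against 0.106% of all genes (lowest adjusted p = 0.136), and DESeq2 without that tumor called 6, against 3.27% of all genes called higher. Without both tumors, *Hbb-bs* was at 1.56 and *Hba-a1* at 1.29, and edgeR again called none of the 9, against 0.0189% of all genes.

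Counted tumor by tumor, 0 of the 9 genes had each KO tumor above each NTC tumor in TMM-scaled CPM, against 0.866% of all genes. Without NTC replicate 1 there were 4, *Hba-a2*, *Hbb-bs*, *Hbb-bt* and *Alas2*, against 2.75%. Without KO replicate 2 as well there were 4, against 3.40%. In CPM without TMM factors there were 3 over all 10 tumors, *Hba-a2*, *Hbb-bt* and *Alas2*, against 1.50%.

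Leukocyte markers went with these genes. Their 10 pan-leukocyte genes summed to 762 to 3709 CPM in KO and 391 to 2881 CPM in NTC tumors (391 to 1212 without replicate 1), and edgeR called 0 of them. At an unadjusted p under 0.05, 0 of the 10 were higher over all tumors, against 3.99% of all genes. Without NTC replicate 1, 8 of the 10 were higher, against 12.0% of all genes. The leukocyte score, the mean log2 CPM of these genes, ran from 6.09 to 8.38 in KO and from 5.03 to 7.95 in NTC tumors, and from 5.03 to 6.78 in NTC tumors without replicate 1. With this score as a covariate, the log2 fold change of *Hba-a2* was 1.32 (edgeR adjusted p = 0.265), that of *Alas2* 1.22 and that of *Hbb-bs* 0.84. In this fit 3 of the 9 genes were higher at an unadjusted p under 0.05, *Hba-a2*, *Alas2* and *Hbb-bt*, and 1 was lower, *Hmox1*, against 6.24% and 6.45% of all genes. The order of the tumors was not the same for both measures, because NTC replicate 5 had a higher leukocyte score (6.78) than KO replicates 3 (6.28) and 4 (6.09) and lower levels of all 5 red cell genes.

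**Figure D2:**
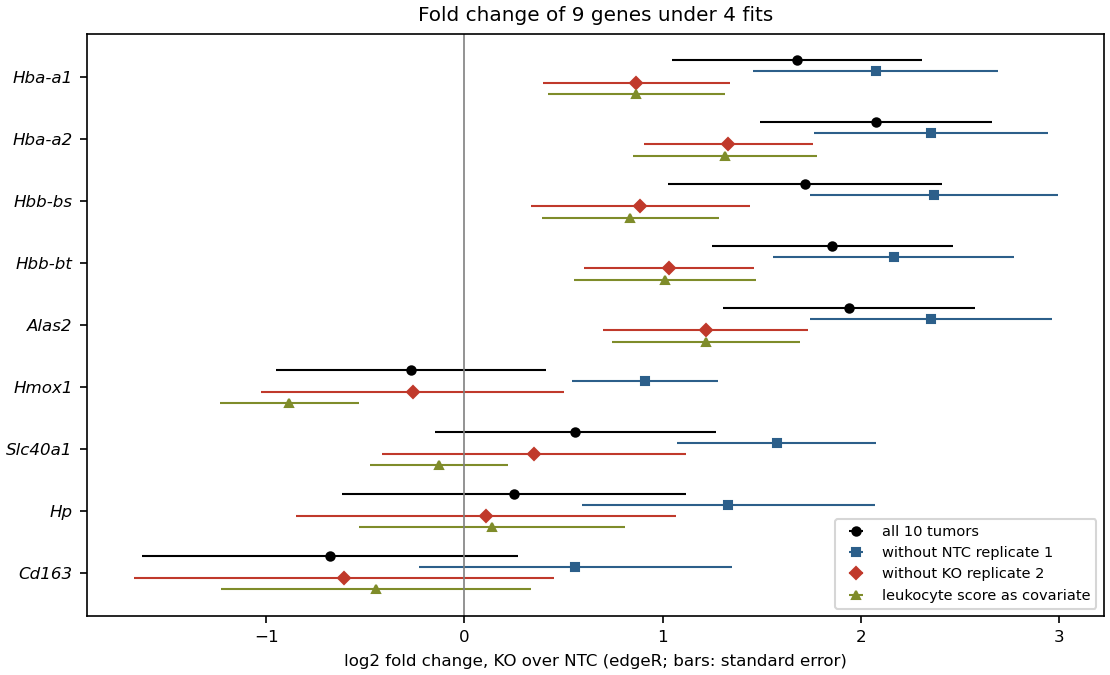
Log2 fold change of KO over NTC with its standard error for the 9 tested genes in 4 edgeR fits, over all 10 tumors, without NTC replicate 1, without KO replicate 2 and with the leukocyte score as a covariate. The 5 red cell genes are positive in each of these fits, while *Hmox1* is at -0.27 over all tumors and at 0.91 without NTC replicate 1.

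The proportions between the globin transcripts varied less than their sum, which ran from 73.4 to 1570 CPM. There were 12.6 to 16.6 *Hbb-bs* reads for each *Hbb-bt* read in 9 of the tumors, and 21.2 in NTC replicate 1 (95% interval 17.6 to 25.6 from counting error). β-globin reads exceeded α-globin reads 3.02 to 4.59 times in KO tumors and 3.18 to 4.86 times in NTC tumors. For each *Hba-a2* read there were 2.86 to 3.47 *Hba-a1* reads in KO and 2.91 to 4.76 in NTC tumors. For each *Alas2* read there were 30.6 to 43.5 globin reads in KO and 37.0 to 50.8 in NTC tumors. The groups overlapped in all 4 proportions, but for *Hba-a1* over *Hba-a2* only through NTC replicate 4 (2.91), since the other 4 NTC tumors (4.10 to 4.76) lay above each KO tumor. This difference was not tested.

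Reads can be shared between the near copies. Of the 75-base windows along annotated transcripts, 84.6% for *Hba-a2*, 67.9% for *Hba-a1*, 56.6% for *Hbb-bt* and 51.5% for *Hbb-bs* also occur in the other copy. The split between copies is therefore uncertain. Reads that align to more than 1 place were tallied apart, so globin reads may be missing to an unequal extent between genes. That also limits the proportions above, and summing the copies does not restore such reads. Summed to 1 row each, the α-globins had a log2 fold change of 1.76 (edgeR adjusted p = 0.422) and the β-globins one of 1.73 (adjusted p = 0.504). None of the windows of *Alas2*, *Hmox1*, *Slc40a1*, *Hp*, *Hpx* or *Cd163* occurs in another gene.

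Other red cell transcripts were scarce. Of 13 erythroid genes with a row, other than globins, the sum was 2.91 to 6.23 CPM in KO and 3.86 to 16.0 CPM in NTC tumors (3.86 to 6.20 without replicate 1). *Klf1*, the transcription factor of red cell precursors, was at 0.135 to 0.539 CPM. Only 3 of the 13 passed the filter, of which 0 were called and 0 were under an unadjusted p of 0.05 in edgeR's test. Of 6 embryonic and minor globin genes none passed it, and their sum stayed at or under 0.27 CPM. *Klf1*, the defining marker of red cell precursors given here, was thus near 0 in tumors of both groups.

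*Hmox1* was the most abundant host gene. It was at 254, 235, 114, 123 and 474 CPM in KO replicates 1 to 5 and at 955, 112, 129, 115 and 140 CPM in NTC replicates 1 to 5. NTC replicate 1 was the highest of all tumors, and the other 4 NTC tumors lay within 112 to 140 CPM. The log2 fold change was -0.27 (SE 0.68, edgeR adjusted p = 0.927) with all 10 tumors and 0.91 (SE 0.37, adjusted p = 0.221) without NTC replicate 1. With the leukocyte score as a covariate it was -0.88 (edgeR adjusted p = 0.321).

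*Slc40a1* was at 17.2, 30.6, 15.5, 4.87 and 31.5 CPM in KO replicates 1 to 5 and at 43.4, 4.33, 10.98, 4.23 and 6.38 CPM in NTC replicates 1 to 5. Apart from NTC replicate 1, all NTC tumors were below KO replicates 1, 2, 3 and 5, and KO replicate 4 lay among them. The log2 fold change was 0.56 (SE 0.71, edgeR adjusted p = 0.843) with all 10 tumors and 1.58 (SE 0.50, adjusted p = 0.177) without NTC replicate 1, where DESeq2 gave an adjusted p of 0.0228. With the leukocyte score as a covariate it was -0.13.

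*Hp* was at 9.14, 28.7, 41.2, 3.97 and 21.5 CPM in KO replicates 1 to 5 and at 57.3, 3.05, 19.3, 2.85 and 7.25 CPM in NTC replicates 1 to 5. The groups overlapped widely, with the highest tumor 10.4-fold above the lowest in KO and 20.1-fold in NTC. The log2 fold change was 0.25 (SE 0.87, edgeR adjusted p = 0.949) with all 10 tumors and 1.33 (SE 0.74, adjusted p = 0.334) without NTC replicate 1.

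*Cd163* was at 7.95, 6.91, 15.2, 8.40 and 4.71 CPM in KO replicates 1 to 5 and at 47.6, 0.197, 12.4, 2.36 and 8.26 CPM in NTC replicates 1 to 5. The value of NTC replicate 2 rests on 6 reads. The KO tumors lay inside the NTC range, with a log2 fold change of -0.68 (SE 0.95, edgeR adjusted p = 0.858) with all 10 tumors and 0.56 (SE 0.79, adjusted p = 0.711) without NTC replicate 1.

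*Hpx* was barely detected. It had 0, 2, 2, 0 and 0 reads in KO replicates 1 to 5 and 6, 2, 11, 0 and 5 reads in NTC replicates 1 to 5. A count of 0 allows up to 3 reads, or 0.108 to 0.133 CPM in the tumors with none, so no fold change is given. Hepatocytes, which secrete hemopexin and haptoglobin into plasma, left little trace here, with 6 hepatocyte markers summing to 0.063 to 0.40 CPM.

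Per length of exon, *Hbb-bs* was the highest of the 10 genes, with a median of 244 CPM per kb over the tumors. *Hmox1* followed at 76.7 CPM per kb and was below *Hbb-bs* in 8 of 10 tumors. *Hba-a1* came next at 52.0 CPM per kb, below *Hmox1* in 9 of 10. *Hbb-bt* and *Hba-a2* were at 19.4 and 17.8 CPM per kb and were not separated, *Hbb-bt* being higher in 6 of 10 tumors. *Hp* was at 8.87, *Alas2* at 3.11, *Cd163* at 1.48 and *Slc40a1* at 1.47 CPM per kb, *Cd163* being the higher of the last pair in 5 of 10 tumors. *Hpx* was last at 0.0444 CPM per kb. Globin values per kb are not corrected for sequence shared between copies, so the place of the globins in this order is uncertain.

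Red cell and host genes were then compared inside each tumor, as the log2 CPM of *Hbb-bs* minus that of the host gene. For *Hmox1* this difference was -0.28, 2.32, 0.57, 0.74 and -0.33 in KO replicates 1 to 5 and -1.53, -0.82, 0.14, -0.88 and -1.42 in NTC replicates 1 to 5. Only NTC replicate 3 entered the KO range. The KO mean exceeded the NTC mean by 1.51 log2 units (two-sided exact permutation test, p = 0.0238, adjusted p = 0.0952 over the 4 host genes with enough reads, and 0.0595 over all 5). Without NTC replicate 1 the excess was 1.35 (exact p = 0.0476, adjusted p = 0.190), and without KO replicate 2 it was 1.08 (exact p = 0.0556).

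The excess was 0.79 against *Slc40a1* (exact permutation p = 0.175, adjusted p = 0.317), 0.94 against *Hp* (exact p = 0.238, adjusted p = 0.317) and 1.00 against *Cd163* (exact p = 0.397). These 3 differences were within the spread between tumors, and without NTC replicate 1 they were 0.65, 0.72 and 0.62. Leaving out each tumor in turn gave 0.50 (without KO replicate 4) to 0.99 (without KO replicate 3) for *Slc40a1*, 0.61 to 1.51 (without the same tumors) for *Hp*, and 0.47 (without KO replicate 2) to 1.88 (without NTC replicate 2) for *Cd163*. No such difference is given for *Hpx*, whose reads lie at or near the limit of a count of 0. With *Alas2* in place of *Hbb-bs* the excess over *Hmox1* was 1.73 (exact p = 0.0397, adjusted p = 0.159).

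**Figure D3:**
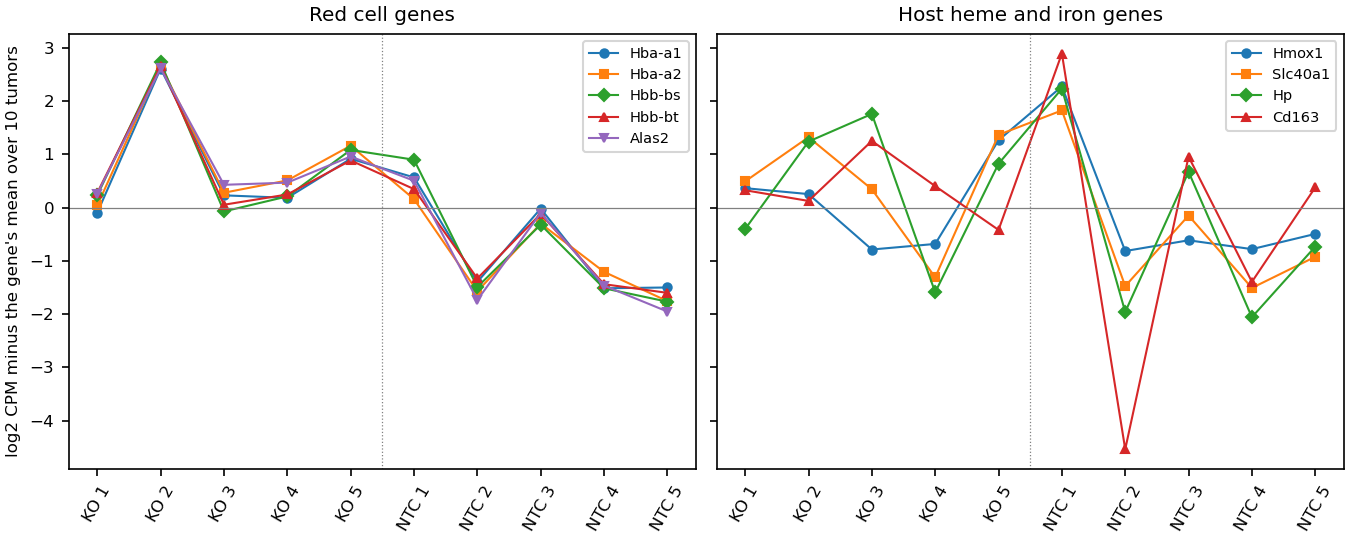
Log2 CPM of each gene minus its mean over the 10 tumors, for the 5 red cell genes on the left and 4 host genes on the right, with the KO tumors before the dotted line. The red cell genes follow one profile with its peak in KO replicate 2, and the host genes share a peak in NTC replicate 1 and differ elsewhere, *Cd163* being lowest in NTC replicate 2 (0.197 CPM).

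Over the 10 tumors the red cell genes were correlated more closely with each other than with any of the host genes. Of 36 pairs of the 9 tested genes, 19 passed an adjusted p of 0.05 for Pearson's r. All 10 pairs of red cell genes passed, with r from 0.97 to 0.99, and from 0.97 to 0.99 after each group was centred on its own mean. Of the 20 pairs of a red cell gene with a host gene 6 passed (r from 0.38 to 0.81), and of the 6 pairs of host genes 3 passed (r from 0.49 to 0.89).

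Of the host genes, *Slc40a1* had the highest r with each red cell gene. Its r with *Hbb-bs* was 0.81 (permutation p = 0.00418, adjusted p = 0.0116) and Spearman's rho was 0.82 (permutation p = 0.00623, adjusted p = 0.0160). Without the 2 tumors farthest from the *Hbb-bs* median r was 0.84, without NTC replicate 1 it was 0.82, and centred by group it was 0.80. By r, *Slc40a1* passed with each of the 5 red cell genes, and *Hp* with 1, *Hba-a1* (r = 0.69, permutation p = 0.0250, adjusted p = 0.0474; rho = 0.81, permutation p = 0.00715). By rho *Slc40a1* passed with all but *Hba-a2* (rho = 0.61, permutation p = 0.0668, adjusted p = 0.1002), and 5 of the 20 pairs passed in all.

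*Hmox1* and *Cd163* passed with none of the 5. For *Hbb-bs* and *Hmox1* r was 0.58 (permutation p = 0.0825, adjusted p = 0.114) and rho was 0.65 (permutation p = 0.0495, adjusted p = 0.0786), and r was 0.76 without the 2 tumors farthest from the *Hbb-bs* median. For *Hbb-bs* and *Cd163* r was 0.43 (permutation p = 0.208) and rho was 0.14 (permutation p = 0.707), and r was 0.72 without those 2 tumors and 0.23 without NTC replicate 2. Whether r with *Slc40a1* differs from r with the other host genes was not tested.

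Among host genes, *Slc40a1* went with *Hp* (r = 0.89, permutation p = 0.00146, adjusted p = 0.00438; rho = 0.89, permutation p = 0.00107) and with *Hmox1* (r = 0.83, permutation p = 0.00054, adjusted p = 0.00177; rho = 0.83, permutation p = 0.0047). Without NTC replicate 1 these r were 0.86 and 0.80. *Hp* and *Cd163* had an r of 0.72 (permutation p = 0.00639, adjusted p = 0.0153) and a rho of 0.65 (permutation p = 0.0502), and r was 0.63 without NTC replicate 1. *Hmox1* and *Cd163* had an r of 0.49, which was 0.16 without that tumor.

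**Figure D4:**
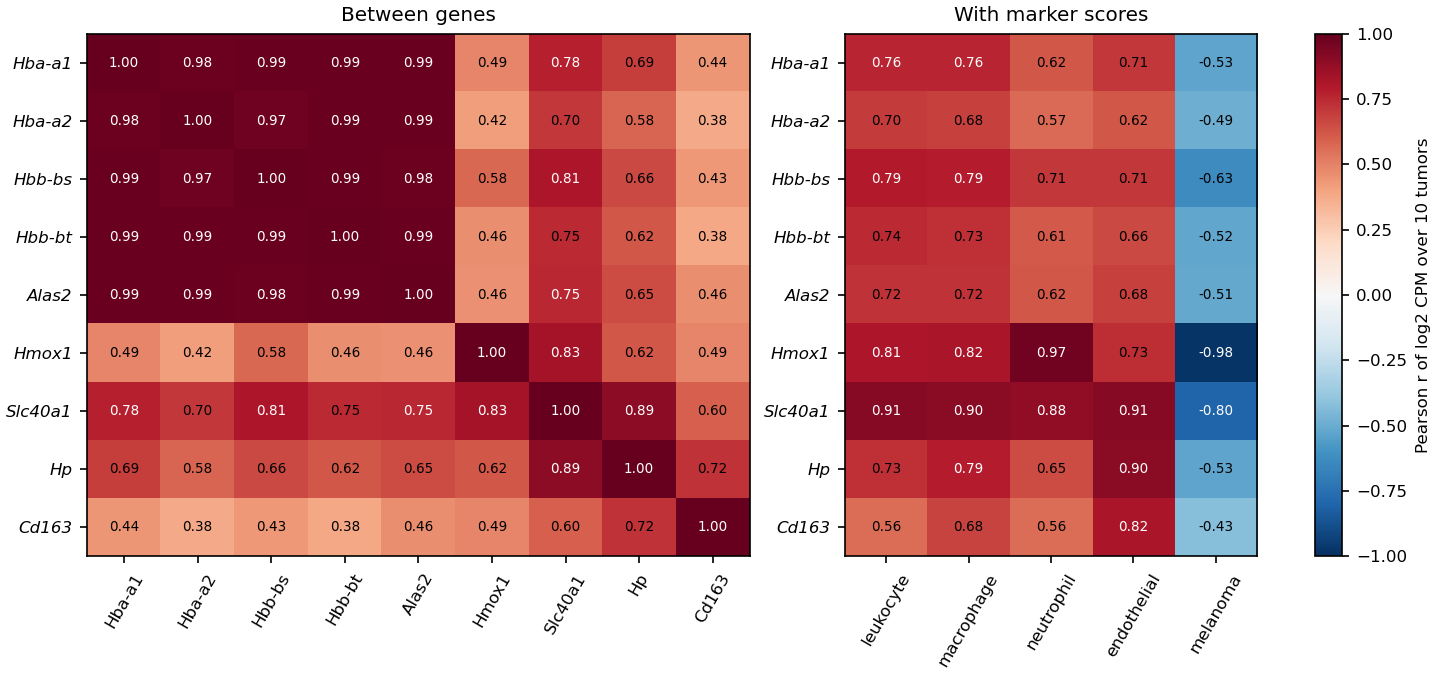
Pearson's r of log2 CPM over the 10 tumors, between the 9 tested genes on the left and between these genes and 5 marker scores on the right. The red cell genes form a block at 0.97 to 0.99, *Slc40a1* reaches 0.81 with *Hbb-bs*, and *Hmox1* is at 0.97 with the neutrophil score and at -0.98 with the melanoma score.

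The same genes were set against scores of cell types, each the mean log2 CPM of its markers, in 45 relations. Of these, 29 passed an adjusted p of 0.05, and 27 did so without NTC replicate 1. Leaving out NTC replicate 2 or 4 left 9 and 10. All 5 red cell genes passed with the leukocyte score (r from 0.70 to 0.79) and with the macrophage score (r from 0.68 to 0.79), and by r none passed with the melanoma score (r from -0.63 to -0.49) and 1 with the neutrophil score. With the endothelial score 3 passed (r from 0.62 to 0.71). By Spearman's rho, 3 of the 5 passed with the leukocyte score, 2 with the macrophage score, 2 with the melanoma score, 4 with the endothelial score and 5 with the neutrophil score. For *Hbb-bs* and the leukocyte score r was 0.79 (permutation p = 0.00602, adjusted p = 0.0226) and rho was 0.76 (permutation p = 0.0156).

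Among the scores of host cells, *Hmox1* had its highest r with the neutrophil score, 0.97 (permutation p = 5e-05, adjusted p = 0.00165) with a rho of 0.85 (permutation p = 0.00295). Its rho was higher with the macrophage score (0.93, permutation p = 0.00048) and the leukocyte score (0.88, permutation p = 0.00142). With the melanoma score its r was -0.98 (permutation p = 0.00011, adjusted p = 0.00165) and its rho -0.88 (permutation p = 0.00146). Both held without NTC replicate 1 (r = 0.95 and -0.98). In 6 tumors *Hmox1* lay within 112 to 140 CPM, and in the other 4 it ran from 235 to 955 CPM. Over the 6 alone r was 0.45 with the neutrophil score and -0.37 with the melanoma score. So narrow a range of *Hmox1* lowers r by itself, so these values cannot tell what the 2 relations rest on. Over the same 6 tumors r was 0.79 with the leukocyte score, 0.74 with the macrophage score and 0.59 with the endothelial score. Neutrophil markers were sparse, 9 genes summing to 11.1 to 80.5 CPM in KO and 5.02 to 148 CPM in NTC tumors, with *Ly6g*, a defining marker, at 3 reads in all.

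*Slc40a1* had an r of 0.91 with the leukocyte score, of 0.90 with the macrophage score and of 0.91 with the endothelial score (permutation p = 0.00063, 0.00028 and 8e-05, and rho from 0.92 to 0.95). *Hp* was closest to the endothelial score (r = 0.90, permutation p = 0.00026; rho = 0.90, permutation p = 0.00078). *Cd163*, a macrophage marker, had an r of 0.68 with the macrophage score (permutation p = 0.0273, adjusted p = 0.0455) but a rho of 0.35 (permutation p = 0.330), and r was 0.17 without the 2 tumors farthest from the score's median, so this relation rests on those tumors.

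**Figure D5:**
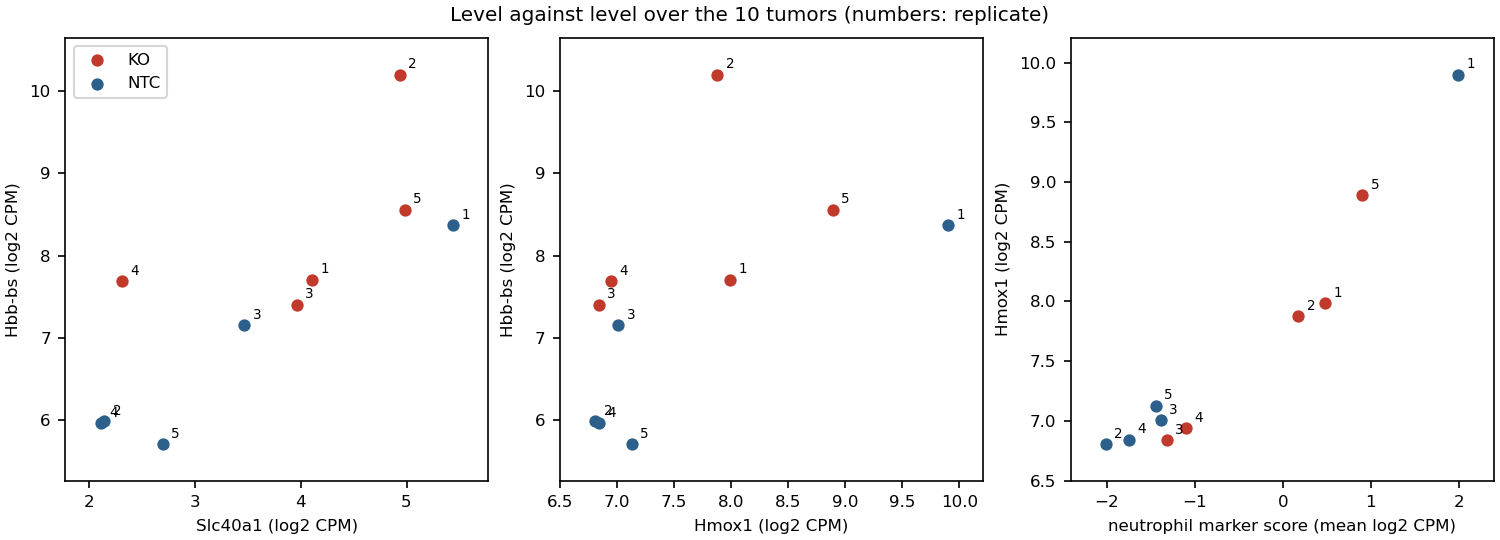
*Hbb-bs* against *Slc40a1*, *Hbb-bs* against *Hmox1*, and *Hmox1* against the neutrophil score, as log2 CPM, with each tumor numbered by replicate. *Hbb-bs* and *Slc40a1* go together (r = 0.81), KO replicate 2 and NTC replicate 1 lie apart in the middle panel, and in the right panel 6 tumors cluster at 112 to 140 CPM of *Hmox1*.

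Genes with the most similar profile were sought among 13940 genes above a mean of 1 CPM, outside the 10. For *Hbb-bs* the nearest were *Man2a2* (r = 0.94), *Ttc33*, *Aatk*, *Dnaja4* and *Fam172a* (0.92 each), all below the r of *Hbb-bs* with the other red cell genes. For *Hmox1* they were *Fem1c*, *Eps15*, *S100a11*, *Card19* and *Srgn* (0.97 to 0.98), and for *Slc40a1* they were *Septin4* (0.99), *Gprin3*, *Rasgrp2*, *Tshz3* and *Pigz*. For *Hp* they were *Esam*, *Bloc1s1*, *Mmd*, *Oplah* and *S1pr1* (0.94 each), and for *Cd163* they were *Arhgef15* (0.97), *Gm37524*, *Fcrls*, *Pdzd2* and *C6*. *Hpx* was too low to be ranked. These r describe 10 tumors and carry no test.

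The pathways around the 10 genes were read from lists. Of 9 heme synthesis genes, *Alas2* included, 0 were called by edgeR and 2 were higher at an unadjusted p under 0.05, *Alas2* and *Cpox* (log2 fold change 0.22, adjusted p = 0.550), against 3.99% of all genes. The median log2 fold change of the 9 was -0.02, against 0.01 over all genes. Without NTC replicate 1 it was -0.13, with 1 gene, *Alas2*, higher at that level, against 12.0%. *Alas1*, which encodes the form of the enzyme used outside red cells, was at 58.2 to 97.5 CPM in KO and 48.3 to 73.7 CPM in NTC tumors (log2 fold change 0.29, edgeR adjusted p = 0.646). *Fech*, which inserts iron into heme, was at 44.5 to 56.7 and 48.2 to 66.7 CPM (log2 fold change -0.16, edgeR adjusted p = 0.712).

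Of 13 genes of heme transport and breakdown, 11 were tested, 0 were called by edgeR and 1 was higher at an unadjusted p under 0.05, *Flvcr1*, a heme exporter (log2 fold change 0.41, adjusted p = 0.493), against 3.99% of all genes. The list has a median of 0.18, and of 0.51 without NTC replicate 1, where 5 genes were higher at that level, against 12.0%. Besides *Hmox1* and *Flvcr1* these were *Lrp1*, the hemopexin receptor (log2 fold change 1.39, adjusted p = 0.180), *Blvrb*, a biliverdin reductase (1.52, adjusted p = 0.188), and *Slc48a1*, a heme transporter of lysosomes (0.51, adjusted p = 0.202), each in edgeR's test.

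Of 21 iron genes 20 were tested, and 0 were called or under an unadjusted p of 0.05 over all tumors (median log2 fold change 0.24). Over all genes 0.0190% were called, and 3.99% were higher and 4.85% lower at that level. The lowest p values belonged to *Ltf*, which encodes lactoferrin (log2 fold change 2.53, edgeR adjusted p = 0.599), *Ncoa4*, which delivers ferritin for breakdown (0.61, adjusted p = 0.625), and *Trf*, which encodes transferrin (0.29, adjusted p = 0.631). Without NTC replicate 1, 8 were higher at that level, against 12.0% of all genes, among them *Trf* (0.41, edgeR adjusted p = 0.136), *Hfe* (1.01) and the ferritin heavy chain gene *Fth1* (1.14), and the median was 0.39. *Hamp*, which encodes the iron hormone hepcidin, had 1 read in all. Of 10 genes that regulate *Hmox1* or share its regulator NRF2, 0 were called or under an unadjusted p of 0.05 over all tumors. Over all genes 3.99% were higher and 4.85% lower at that level. The median of the 10 was 0.08 (0.15 without NTC replicate 1), and *Nqo1*, *Bach1* and *Keap1* had the lowest p values (adjusted p = 0.756, 0.763 and 0.874 in edgeR's test).

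Markers of other cell types are given for comparison. Of 10 macrophage genes tested, 0 were called by edgeR and 0 were under an unadjusted p of 0.05 over all tumors. Over all genes 3.99% were higher and 4.85% lower at that level. The median log2 fold change of the macrophage genes was 0.88 over all tumors and 1.62 without NTC replicate 1. Without that tumor 9 of the 10 were higher at an unadjusted p under 0.05, against 12.0% of all genes. The 6 platelet markers summed to 10.4 to 67.2 CPM in KO and 4.60 to 115 CPM in NTC tumors (4.60 to 10.4 without replicate 1), and *Pf4* made up most of the sum. The 10 endothelial markers summed to 278 to 348 CPM in KO and 236 to 403 CPM in NTC tumors (236 to 317 without replicate 1). Skeletal muscle markers summed to 183 CPM in KO replicate 4 and 35.5 CPM in KO replicate 3, against 1.42 to 5.62 CPM in the other KO tumors and 0.694 to 3.77 CPM in NTC tumors, and keratinocyte markers to 32.9 CPM in KO replicate 3 and at most 7.79 CPM elsewhere. The 7 adipocyte markers summed to 36.3 to 173 CPM in KO and 9.07 to 232 CPM in NTC tumors (9.07 to 77.9 without replicate 1). They were highest in NTC replicate 1 and KO replicates 2 and 3, the tumors in which *Hp*, a gene that fat cells also express, was highest. The part of these cell types in the levels of the 10 genes was not tested.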

How the data were processed

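Bulk tumor RNA of 10 tumors was sequenced. Per the labels, reads were checked with FastQC, trimmed with Trimmomatic, aligned to mm10 with HISAT2 and counted with HTSeq, and the authors deposited raw counts per gene without normalization. The study's methods name standard Illumina kits. The strand setting, the annotation and the version of HTSeq are not given in the sources used here. The 5 summary rows of each file were left out of library sizes. Over the files, 12.8% to 20.4% of reads aligned to more than 1 place and 0.757% to 2.54% were ambiguous between genes. Reads carry no molecular identifiers, so counting intervals cover counting error only.

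Counts were tested with edgeR 4.0.16 (quasi-likelihood test, TMM factors, its filter on low counts, Benjamini-Hochberg adjustment over all genes tested). Genes were called at an adjusted p under 0.05 and an absolute log2 fold change above 1. A standard error was recovered from each estimate and its F statistic (estimate over √F). Logarithms of CPM used a prior count of 2. Differences within tumors were tested by exact permutation of the group labels over 252 splits, and correlations with 100000 permutations, so that 1e-05 is the smallest p they can give. In each family of relations p values were Benjamini-Hochberg adjusted. *Hpx* was left out of correlations and of differences within tumors for its low counts. Nothing in the labels says that replicates came from separate experiments, and p values measure the spread between these tumors.

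The 10 genes are described in each tumor. From each other list the genes with the 3 lowest p values were named where a value is given, and for profiles the 5 genes with the highest r. The genes and lists were chosen with earlier results of these data known. *Ahsp*, an erythroid gene of these lists, has no row and was not analysed here. Some genes of these lists are not reported here by name. Alternatives were DESeq2 1.42.0, RLE normalization, other filters, no fold threshold, the replicate number as a block, the leukocyte score as a covariate, summed paralogs, library sizes without globins and each tumor left out. Fits without NTC replicate 1 in DESeq2, without 2 tumors together and without TMM factors, and the counts of genes without overlap, were chosen after seeing the data. On simulated data with 200 genes changed among 15821, edgeR recovered 197 with 13 false calls, and DESeq2 197 with 16. Whether changes of the size estimated for the 10 genes would be called at their spread between tumors was not tested. Gene positions and exon lengths came from GENCODE M21 (GRCm38), which may not be the authors' annotation, and promoter sequences from RefSeq (GRCm38.p6), where 7 of the 10 genes had an entry. R was version 4.3.3, with Python 3.11.15, numpy 2.4.6, pandas 2.3.3 and matplotlib 3.10.9.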

Additional observations from a re-analysis of the deposited data

Results flagged for a closer look

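Of the 34 sets of 5 tumors examined for a single tumor far from the rest, 10 held one. Levels and read ratios were examined without logarithms, where a high tumor stands out more readily than in log2 CPM. The 10 are therefore not set against a chance rate, and log2 levels were not examined. In the KO group the tumor far from the rest was KO replicate 2 for all 5 red cell genes. *Hba-a1* was at 243.7 CPM there against 37.3 to 75.2 CPM in the other 4 KO tumors, *Hba-a2* at 70.98 against 11.4 to 24.9, and *Hbb-bs* at 1177 against 169 to 376.7. *Hbb-bt* was at 78.08 CPM against 12.7 to 22.7, and *Alas2* at 36.31 against 7.05 to 11.5. These 5 genes correlate with each other, so they count as 1 pattern. None of the host genes stood out in this tumor.

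In the NTC group it was NTC replicate 1. *Hmox1* was at 954.7 CPM there against 112 to 140 CPM in the other 4 NTC tumors, *Slc40a1* at 43.38 against 4.23 to 10.98, and *Cd163* at 47.55 against 0.197 to 12.4. In the same tumor β-globin reads exceeded α-globin reads 4.864 times, against 3.18 to 3.63 times in the other NTC tumors, and there were 21.22 *Hbb-bs* reads for each *Hbb-bt* read, against 12.6 to 13.9. This is the library with the lowest total (11896643 reads on genes) and the highest share of reads outside genes (42.9%). The part of these properties in its values was not tested.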

How the results depend on the processing

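The 5 red cell genes kept a positive log2 fold change under each alternative run, from 0.84 to 2.42 over the 5, and edgeR called none of them in any. DESeq2 called 24 genes higher and 72 lower, of which 1 was among the 10 genes, and 526 and 110 without NTC replicate 1, of which 6 were. Among all genes, the calls higher and lower were 0 and 6 with at least 10 counts in every tumor, 4 and 3 with the leukocyte score as a covariate and 1 and 4 without a fold threshold, and 0 genes were called lower without TMM factors. Leaving out 1 tumor gave 1 to 2 calls higher and 0 to 15 lower, 3 to 7 of the 10 genes higher at an unadjusted p under 0.05, 14 to 21 pairs of genes past the threshold and 9 to 28 relations with marker scores. The highest of the first 3 counts came without NTC replicate 1. There were 0 calls lower without KO replicate 3 or 5 or NTC replicate 2, 3, 4 or 5, and 3 of the 10 genes higher at an unadjusted p under 0.05 without KO replicate 2 or NTC replicate 2, 4 or 5, against 2.65%, 2.96%, 2.62% and 3.71% of all genes.

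With the leukocyte score 3 of the 10 genes were higher and 1, *Hmox1*, lower at an unadjusted p under 0.05, against 6.24% and 6.45% of all genes. Without a filter on low counts 1 was lower, *Hpx*, with 0 to 11 reads a tumor, against 6.02% of all genes. Each KO tumor was above each NTC tumor in 4 genes without NTC replicate 1, in 4 without KO replicate 2 as well, and in 3 without TMM factors, against 2.75%, 3.40% and 1.50% of all genes. *Hmox1* changed sign without NTC replicate 1 (0.91), without it and KO replicate 2 (0.93), in DESeq2 without it (0.95) and without TMM factors (0.11), and *Cd163* in the first 3 of these (0.56, 0.64 and 0.57). *Slc40a1* was at -0.13 with the leukocyte score. Leaving out 1 tumor gave *Hp* -0.15 to 1.33, *Hmox1* -0.66 to 0.91 and *Cd163* -1.0 to 0.56. The cause was not tested.

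The replicate numbers did not pair the tumors, since tumors with the same number deviated from their group means with correlations of -0.29 to 0.63, and 2 of 5 KO tumors were closest to their own number. With the replicate block edgeR called 1 gene higher and 0 lower, 3 of the 10 genes were higher at an unadjusted p under 0.05, against 5.05% of all genes, and *Hmox1* and *Cd163* were at 0.20 and 0.48. Levels under about 100 reads, as for *Alas2* in 4 NTC tumors and *Hpx* throughout, are limited by depth.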
